A study of Homo sapiens with 6 samples.

Results

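The 10 genes described here encode the transcription factors of the FOS family (FOS, FOSB, FOSL1, FOSL2), the JUN family (JUN, JUNB, JUND) and the small MAF family (MAFF, MAFG, MAFK). They were taken by symbol from a table of 25445 rows, and all 10 were found in 1 row each. RNA sequencing was performed in MHCC-97H, an established human liver cancer cell line, which had been exposed for 16 h to 6j at 10 μM (6j treated cells) or to its solvent (non-treated cells). The compound was derived from sophoridine, an alkaloid of plants. Each group had 3 libraries, numbered 1 to 3, and the study used them to look for genes that respond to 6j. Both groups shared the cell line, the medium with serum and the polyadenylated RNA library, and the sources used here do not say whether the libraries came from separate cultures, so the p-values measure the spread between these libraries.

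FOS and JUN proteins belong to the basic leucine zipper (bZIP) class and form AP-1, a dimer that binds DNA. FOS proteins pair with JUN proteins, whereas JUN proteins also pair with each other. JUNB is known to be a weaker activator than JUN at many sites, and several of these genes are immediate-early genes, which stimulated cells transcribe without new protein synthesis. The small MAF proteins lack an activation domain, so their effect on a gene depends on the partner, such as NRF2 or BACH1, with which they bind.

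The total count ranged from 31533403 to 38018349 per library, and 15957 rows passed the filter on low counts. All 10 members passed it. Of 10 markers of the hepatocyte lineage, 9 had at most 10 counts in every library, among them ALB and AFP, while the keratin genes KRT8 and KRT18 had at least 12297 counts in every library. Of the other epithelial markers, EPCAM was at 0 in every library and CDH1 had 4 to 12 counts. The remaining hepatocyte marker, HNF4A, had 19 to 53 counts. Thus 9 of the 10 hepatocyte markers were at or near 0 in both groups. The 5 leukocyte markers summed to at most 35 counts in any library. Of the 5 fibroblast markers, COL1A1 had 6972 to 10461 counts and PDGFRB 145 to 237. The other 3 were at or near 0, with COL1A2 at 0 in every library, DCN at 0 to 7 counts and LUM at 0 to 6. Of the 4 endothelial markers, CDH5 had 49 to 187 counts, and the list summed to at most 197 in any library. The part of these transcripts in the results was not tested. In bulk RNA, a change in the RNA of each cell and a change in the share of cells that hold a transcript cannot be told apart.

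The small MAF genes MAFF (2.22-fold) and MAFG (1.63-fold) rose in 6j treated cells, and JUNB fell by 0.65 on the log2 scale. These 3 of the 10 members were differentially expressed genes (DEGs), defined by a Benjamini-Hochberg adjusted p under 0.05 in edgeR's quasi-likelihood test and a fold change above 1.5. Over all rows tested, 3.60% were DEGs, 2.48% higher and 1.12% lower. JUND and MAFK also passed the adjusted p, with fold changes of 1.46 and 1.44 that were under the threshold. The other 5 members (FOS, FOSB, FOSL1, FOSL2 and JUN) were not called. When the replicate number was a block in the fit, 5 members were DEGs, 4 higher and 1 lower, because JUN and FOSB were added. In that fit 6.47% of all rows were DEGs, 4.01% higher and 2.46% lower. The median log2 fold change of the 10 members was 0.53, against 0.00 over all rows tested, and 9 of the 10 fitted values were above 0. In 7 members, the groups did not overlap (6 higher and 1 lower), as in 31.7% of all rows. The highest library was 6j treated replicate 3 for 6 of the members (FOS, FOSB, FOSL1, JUN, MAFF and MAFK), as it was for 20.3% of all rows tested.

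**Figure D1:**
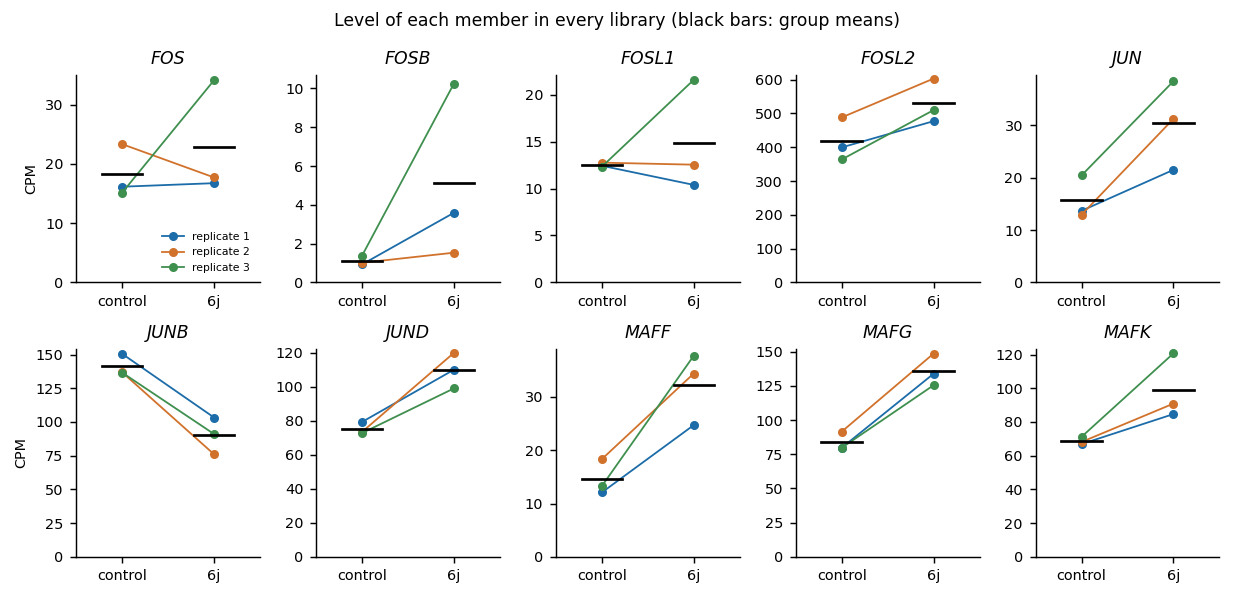
Level of each of the 10 members in counts per 1000000 counts of the TMM normalized library (CPM, vertical axes from 0) in non-treated (control) and 6j treated (6j) cells. Each point is a library, lines join libraries of the same replicate number and black bars are group means (n = 3). JUNB was lower in every 6j treated library than in any non-treated library, whereas JUN, JUND, FOSB and the 3 small MAF genes were higher.

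MAFG encodes a small MAF protein that pairs with NRF2 and BACH1 (chromosome 17, 81918270 to 81927714 on the minus strand, GRCh38). Non-treated replicates 1, 2 and 3 had 79.7, 91.5 and 79.7 CPM, and 6j treated replicates 1, 2 and 3 had 134, 149 and 126 CPM. The highest non-treated library was thus below the lowest 6j treated library. MAFG rose by a log2 fold change of 0.70 (SE 0.10), and its adjusted p of 0.00623 in edgeR was the smallest among the members (rank 95 among all rows). By replicate number, the difference in log2 CPM was 0.75, 0.70 and 0.65. MAFG was the only member called in each of the 6 fits that left out 1 library, with log2 fold changes of 0.63 to 0.77. It shares 105 exon bases on the same strand with SIRT7, which had 625 to 833 counts against 2775 to 5621 for MAFG. MAFG also shares 224 exon bases on the opposite strand with AC145207.8, which is not among the counted rows.

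MAFF, a small MAF gene known to be induced by many stimuli (chromosome 22, 38200767 to 38216511), had the largest change of the 3 DEGs. FOSB was called with a larger change in the fit with the block and in DESeq2. Non-treated replicates 1, 2 and 3 had 12.1, 18.3 and 13.3 CPM, and the treated replicates had 24.7, 34.4 and 37.8 CPM. All 3 treated libraries were above all 3 non-treated ones. In edgeR, the log2 fold change of MAFF was 1.15 (SE 0.20) at an adjusted p of 0.0135. The call was lost without non-treated replicate 1 (adjusted p = 0.068 in edgeR), non-treated replicate 3 (0.0514) or 6j treated replicate 2 (0.0721).

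MAFK, the third small MAF gene (chromosome 7, 1530714 to 1543043), had 66.9, 68.1 and 71.2 CPM in the non-treated replicates and 84.7, 90.9 and 121 CPM with 6j. The groups did not overlap, and 6j treated replicate 3 was the highest. Its log2 fold change of 0.52 (SE 0.13) had an adjusted p of 0.0377 in edgeR, and its 95% interval of 0.23 to 0.81 spanned the fold change threshold. With 1 library left out, MAFK passed the adjusted p in 2 of 6 fits, and the adjusted p ranged from 0.0225 to 0.145 in edgeR. It was a DEG in 1 of them, without 6j treated replicate 1 (log2 fold change 0.62), and missed the adjusted p without any single non-treated replicate or without 6j treated replicate 2. MAFK exons overlap 809 bases of TMEM184A on the opposite strand, and whether the counting used strand is not given in the sources used here. TMEM184A had 1244 to 2025 counts, and MAFK 2148 to 4147.

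For comparison between genes, CPM were divided by the exon length in kilobases (CPM per kb). Summed over the 3 small MAF genes, this level was 34.0 ± 1.87 CPM per kb (SD, n = 3) in non-treated and 54.0 ± 4.49 CPM per kb (SD, n = 3) in 6j treated cells, a ratio of 1.59. The 3 sums of treated cells (49.1, 55.0 and 57.8) were above those of non-treated cells (32.4, 36.1 and 33.6). MAFG made up 47.0% ± 1.57 of the sum (SD, n = 3) in non-treated and 48.5% ± 6.06 (SD, n = 3) in 6j treated cells, MAFK 45.4% and 40.9%, and MAFF 7.57% and 10.6%, and for each of the 3 genes the shares of the groups overlapped. These sums and shares are descriptions with no test.

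**Figure D2:**
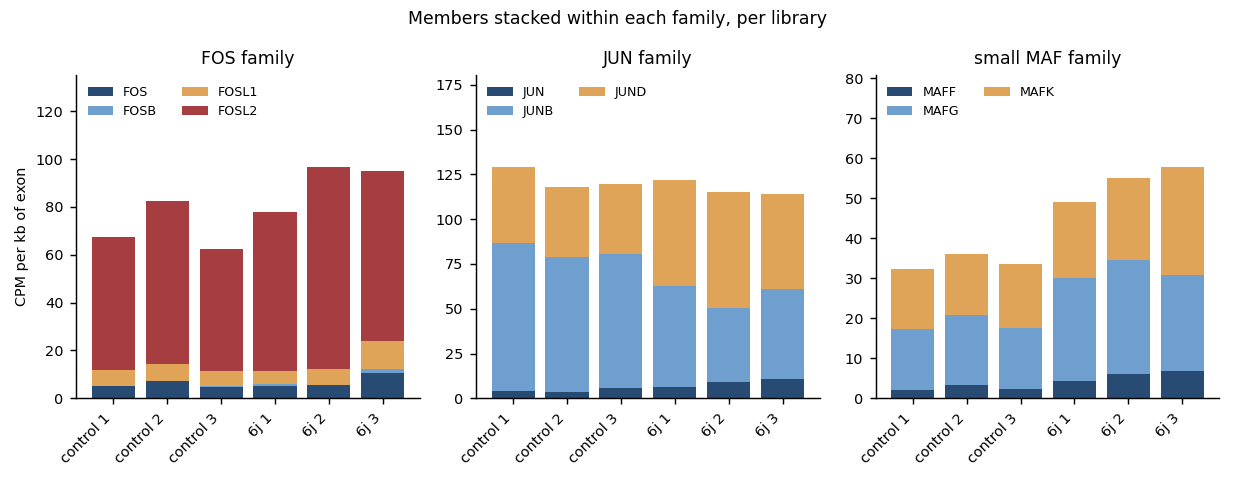
CPM per kb of exon (vertical axes from 0) of the FOS, JUN and small MAF members, stacked within each family for the 6 libraries. In the JUN family, the bars kept a similar height, 114 to 129 CPM per kb, while with 6j the JUNB part was smaller and the JUND part larger.

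Of the JUN family, JUNB was the only DEG in edgeR with TMM factors, all 6 libraries and no block. JUNB (chromosome 19, 12791496 to 12793315), an immediate-early gene, had 151, 137 and 137 CPM in the non-treated replicates and 103, 76.0 and 91.0 CPM with 6j. Every treated library was below every non-treated one. In edgeR, the fold change of JUNB was −0.65 in log2 (SE 0.11) at an adjusted p of 0.0121, a level 1.57-fold higher in non-treated cells. JUNB was lower with 6j in each of the 11 alternative fits, but the call was lost without non-treated replicate 1 (adjusted p = 0.0694 in edgeR) or 6j treated replicate 2 (0.0538). JUNB shares 259 exon bases with HOOK2 on the opposite strand, which had 544 to 723 counts against 2872 to 5671 for JUNB.

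JUND (chromosome 19, 18279760 to 18281622 on the minus strand), known as the most constantly expressed JUN gene, was at 79.3, 73.4 and 72.8 CPM in the non-treated replicates. With 6j it was at 110.0, 119.9 and 99.0 CPM, again with no overlap between the groups. JUND passed the adjusted p (0.0113 in edgeR) with a log2 fold change of 0.55 (SE 0.09, 95% interval 0.34 to 0.75). It missed the adjusted p without non-treated replicate 1 (0.0512 in edgeR) or 6j treated replicate 2 (0.0607), and was a DEG without 6j treated replicate 3 (log2 fold change 0.61, adjusted p = 0.00892 in edgeR).

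JUN (chromosome 1, 58780788 to 58784327 on the minus strand), the founding member of the family and a substrate of the JNK kinases, had 13.7, 12.9 and 20.5 CPM without 6j in replicates 1, 2 and 3. It had 21.5, 31.3 and 38.5 CPM with 6j. The lowest treated library was close to the highest non-treated one, but the groups did not overlap. Its log2 fold change of 0.95 (SE 0.25) did not pass in the fit without a block (adjusted p = 0.0569 in edgeR). Replicate 3 was the highest of its group on both sides. JUN was called when replicate numbers were blocked (log2 fold change 0.94, SE 0.12, adjusted p = 0.000246 in edgeR), as it was in DESeq2 (adjusted p = 0.000659). It was also called without non-treated replicate 3 (adjusted p = 0.041 in edgeR) or 6j treated replicate 1 (0.0203).

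Per length, the sum of the JUN family was 122 ± 5.87 CPM per kb (SD, n = 3) in non-treated and 117 ± 4.29 CPM per kb (SD, n = 3) in 6j treated cells, and the ranges of the groups overlapped. JUNB made up 63.4% ± 0.734 of it (SD, n = 3) in non-treated and 42.2% ± 5.31 (SD, n = 3) in 6j treated cells. The JUND share was 33.0% ± 0.378 and 50.4% ± 4.98 (SD, n = 3 each), and the JUN share 3.64% ± 1.03 and 7.40% ± 2.28 (SD, n = 3 each). In every non-treated library JUNB held the largest share of the family, and in every 6j treated library JUND did. The shares of each JUN gene did not overlap between the groups.

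The bases before the starts of these genes are shown because the fitted changes of the JUN genes had different signs. Windows of 250 bases before the start were taken from RefSeq (GRCh38.p14), which gave 8 of the 10 members, FOSL1 and MAFK being the others. Both strands were searched for 8 motifs, which can overlap each other. They were the AP-1 site TGANTCA, the cyclic AMP response element (CRE) TGACGTCA, the JUN-type AP-1 site TGACATCA, the core TGATGCAA of the C/EBP-ATF element, the core TGACNNNGC of the antioxidant response element, the CArG box bound by SRF, the ER stress response element of XBP1 and ATF6 and the TATA box TATAAA. Capitals mark the motifs found, 5′ to 3′ on the strand of the gene. For JUN and MAFF, whose windows lie within exons of other annotated transcripts, only 30 bases around a single motif are printed. The windows were chr19:12791236-12791485 on the plus strand for JUNB, chr19:18281623-18281872 on the minus strand for JUND, chr1:58784096-58784125 on the minus strand for JUN and chr22:38201929-38201958 on the plus strand for MAFF.
JUNB: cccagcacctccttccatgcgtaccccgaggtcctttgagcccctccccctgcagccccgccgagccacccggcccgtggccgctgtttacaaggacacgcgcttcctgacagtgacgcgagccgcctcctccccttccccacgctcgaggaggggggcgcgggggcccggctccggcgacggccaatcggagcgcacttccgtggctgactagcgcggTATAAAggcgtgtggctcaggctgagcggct
JUND: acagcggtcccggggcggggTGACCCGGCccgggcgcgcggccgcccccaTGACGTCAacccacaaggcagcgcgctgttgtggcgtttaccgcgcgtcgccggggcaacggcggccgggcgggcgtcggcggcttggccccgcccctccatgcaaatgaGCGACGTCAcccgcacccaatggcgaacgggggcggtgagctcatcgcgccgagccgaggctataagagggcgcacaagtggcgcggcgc
JUN: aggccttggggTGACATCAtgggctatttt
MAFF: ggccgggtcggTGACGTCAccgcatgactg

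The JUNB window held a TATA box 31 to 26 bases before the start and no other motif of the 8. The JUND window held a CRE 200 to 193 bases before the start and matches of the antioxidant response element core at 230 to 222 bases and, on the other strand, at 90 to 82 bases. The JUN site lay 67 to 60 bases before the RefSeq start, and the MAFF CRE 54 to 47 bases, both within GENCODE exons of the same gene. The CRE was present in the windows of JUND and MAFF and in 1.77% of 27305 promoters of the same length. JUN alone among the 8 members searched held TGACATCA, which 2.45% of all promoters held. The TATA box was found in FOS, FOSB and JUNB (11.1% of all promoters), and the antioxidant response element core in JUND and MAFF (11.0% of all promoters). None of the 8 held the AP-1 site TGANTCA, the C/EBP-ATF core, the CArG box or the ER stress response element in this window, against 6.60%, 0.820%, 1.14% and 0.0806% of all promoters. A match is a description of the letters and not of a bound site.

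None of the 4 FOS family members was called in edgeR with all 6 libraries and no block. FOSL2, also known as FRA2 (chromosome 2, 28392448 to 28417312), was the most abundant FOS gene per length. Replicates 1, 2 and 3 had 399.5, 488 and 364 CPM without 6j, and 477, 603 and 509.9 CPM with it. Treated replicate 1 was below non-treated replicate 2, so the groups overlapped, although each treated library was above the non-treated library of the same number. FOSL2 had a log2 fold change of 0.35 (95% interval 0.05 to 0.64, adjusted p = 0.13 in edgeR). With the block its adjusted p was 0.00151 in edgeR, and the change of 0.35 stayed under the fold change threshold.

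FOSB (chromosome 19, 45467995 to 45475179), an immediate-early gene, was the least abundant member. The non-treated replicates had 0.929, 1.02 and 1.38 CPM, and the treated replicates 3.59, 1.53 and 10.2 CPM. The groups did not overlap, but the treated libraries ranged widely, from 58 to 352 counts, against 32 to 48 counts in non-treated cells. Its log2 fold change was 2.20, with a 95% interval of 0.62 to 3.79 and an adjusted p of 0.0905 in edgeR. FOSB was called with the block (log2 fold change 1.88, adjusted p = 0.0156 in edgeR) and in DESeq2 (adjusted p = 0.000977), and without 6j treated replicate 2 (log2 fold change 2.64, adjusted p = 0.0483 in edgeR). Without 6j treated replicate 3, the log2 fold change was 1.21.

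FOS, the best known immediate-early gene (chromosome 14, 75278774 to 75282230), had 16.2, 23.3 and 15.2 CPM without 6j and 16.8, 17.7 and 34.1 CPM with 6j in replicates 1, 2 and 3. The groups overlapped, and only treated replicate 3 was above the non-treated range. No difference was detected with 3 libraries per group (log2 fold change 0.33, 95% interval −0.43 to 1.08, adjusted p = 0.575 in edgeR). The log2 fold change was −0.078 without 6j treated replicate 3.

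FOSL1, also known as FRA1 (chromosome 11, 65892049 to 65900573 on the minus strand), had 12.4, 12.8 and 12.3 CPM without 6j and 10.4, 12.5 and 21.6 CPM with 6j. Again 6j treated replicate 3 alone was above the non-treated range. FOSL1 had a log2 fold change of 0.25 (95% interval −0.32 to 0.81, adjusted p = 0.585 in edgeR), and −0.12 without that library.

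Per length, the FOS family summed to 70.7 ± 10.4 CPM per kb (SD, n = 3) in non-treated and 89.9 ± 10.3 CPM per kb (SD, n = 3) in 6j treated cells, and the groups overlapped. FOSL2 made up 82.3% ± 0.654 and 82.5% ± 6.63 of the sum (SD, n = 3 each), and its lowest share was 74.9% in 6j treated replicate 3. Of the 10 members, JUNB had the highest level per length in non-treated cells (77.6 ± 4.38 CPM per kb), followed by FOSL2 (58.3 ± 8.95), JUND (40.3 ± 1.93), MAFG (16.0 ± 1.30) and MAFK (15.4 ± 0.496), where each SD has n = 3. The last 2 differed by less than their spread. FOSL1, FOS, JUN, MAFF and FOSB followed with 6.62, 5.63, 4.43, 2.59 and 0.199 CPM per kb, and the library ranges of FOSL1 and FOS and those of FOS and JUN overlapped. In 6j treated cells FOSL2 was the highest (74.1 ± 9.13 CPM per kb), and JUND (58.9 ± 5.61) and JUNB (49.5 ± 7.51) followed, with SD and n = 3 each. The libraries of JUND and JUNB overlapped in range there.

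**Figure D3:**
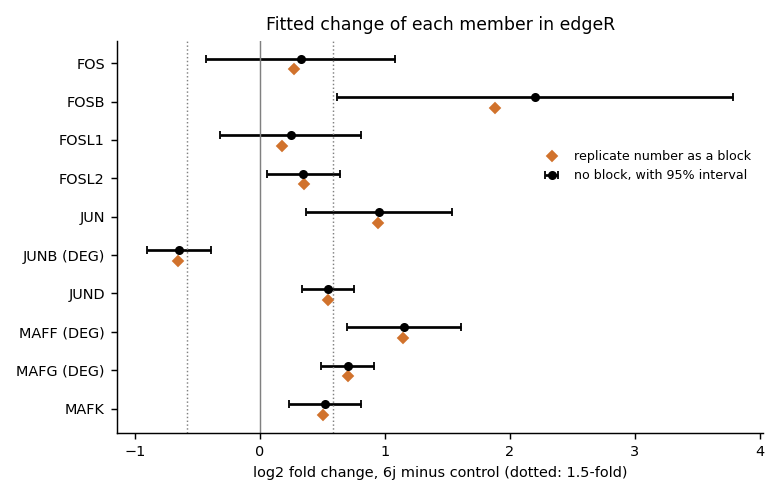
Log2 fold change of each member between 6j treated and non-treated cells in edgeR (horizontal axis, dotted lines at 1.5-fold). Black points with 95% intervals are the fit without a block and diamonds the fit with the replicate number as a block, which moved FOSB from 2.20 to 1.88 and JUN from 0.95 to 0.94.

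**Figure D4:**
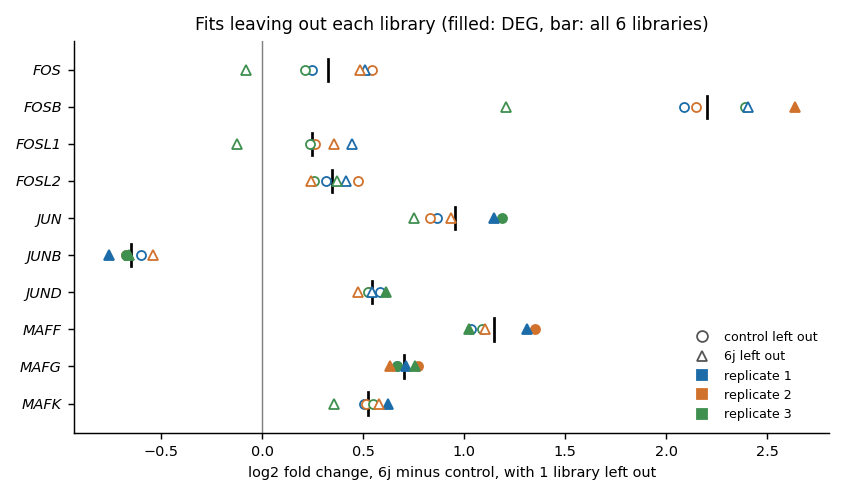
Log2 fold change of each member with 1 library left out (horizontal axis), where circles mark an omitted non-treated library, triangles an omitted 6j treated library, colors the replicate number, filled symbols a DEG and bars the fit with all 6 libraries. MAFG was called in 6 fits, JUNB in 4 and MAFF in 3, while FOS and FOSL1 crossed 0 without 6j treated replicate 3.

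The related genes were read from 5 lists written from general knowledge, with earlier results of these data known. Their shares of DEGs are therefore descriptions, with no set test. The first list holds bZIP factors that pair with AP-1 or small MAF proteins. Of its 15 genes 14 passed the filter, and 4 of these (28.6%) were DEGs, all with a higher level after 6j. Over all rows, 2.48% were DEGs higher after 6j and 3.60% were DEGs in either direction. The median log2 fold change of the list was 0.25, against 0.00 over all rows. ATF4, a regulator of amino acid metabolism under stress that can pair with FOS and JUN proteins, rose by 1.10 in log2 (SE 0.09). ATF3, an AP-1 family factor that pairs with JUN proteins, rose by 1.60 (SE 0.21). NFE2L1, which encodes the NRF1 partner of small MAF proteins, rose by 0.59 (SE 0.09, adjusted p = 0.00928 in edgeR), from 275 ± 4.97 to 413 ± 39.8 CPM (SD, n = 3 each). CREB5, a factor that pairs with JUN, rose by 1.28 (SE 0.23, adjusted p = 0.0143 in edgeR) from a low level of 1.76 ± 0.276 CPM (SD, n = 3). Of the small MAF partners chosen after their values were seen, NFE2L2, the gene of NRF2, was at a log2 fold change of 0.17 with an adjusted p of 0.221 in edgeR, and BACH1, the repressor, at 0.50 (0.0786), and neither was called. With the block NFE2L1 was under the fold change threshold (0.58), and NFE2, another partner named after its values were seen, was called lower (adjusted p = 0.0478 in edgeR). The list held 2 to 5 DEGs with 1 library left out, 2 without non-treated replicate 1, non-treated replicate 3 or 6j treated replicate 2.

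The second list holds immediate-early genes other than the members. Of 22 genes 19 passed the filter, and 1 was a DEG (5.26%, against 3.60% of all rows), with a median log2 fold change of 0.13. This was ZFP36L1, which encodes a protein that promotes mRNA decay, with 47.7 ± 3.35 CPM in non-treated and 78.3 ± 13.5 CPM in 6j treated cells (SD, n = 3 each, log2 fold change 0.72, adjusted p = 0.0124 in edgeR). With the block, 3 were DEGs, against 6.47% of all rows in that fit. The 2 added genes, named after their values were seen, were EGR1 (log2 fold change 0.85, adjusted p = 0.0334 in edgeR) and IER3 (0.64, adjusted p = 0.0453). No DEG was left on the list without non-treated replicate 1, 6j treated replicate 2 or 6j treated replicate 3.

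Among the kinases and factors upstream of FOS and JUN, 20 of 20 passed the filter and 0 were DEGs in edgeR (against 3.60% of all rows). A count of 0 among 20 genes is close to that share. An unadjusted p under 0.05 in edgeR was found for 6 genes (4175 of 15957 over all rows), and 1 gene was a DEG in DESeq2. The median log2 fold change was 0.03. MAP3K5, which encodes the stress kinase ASK1, had the smallest p of the list and fell by 0.54 on the log2 scale (SE 0.12, adjusted p = 0.023 in edgeR), under the fold change threshold. MAP2K3, a kinase of the p38 branch, was at a log2 fold change of −0.40 and did not pass (adjusted p = 0.0792 in edgeR). With the block 1 gene was a DEG, against 6.47% of all rows in that fit. It was MAPK11, a p38 kinase gene named after its values were seen (log2 fold change −0.64, adjusted p = 0.018 in edgeR).

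Of 23 genes commonly named as AP-1 targets, 18 passed the filter and 1 was a DEG (5.56%, against 3.60% of all rows). Below 0 were 12 of 18 log2 fold changes (median −0.12), against 7871 of 15957 over all rows. The DEG was VEGFA, the angiogenic growth factor gene, at 218 ± 23.2 CPM in non-treated and 514 ± 185 CPM in 6j treated cells (SD, n = 3 each). VEGFA rose by 1.24 in log2 (SE 0.26, adjusted p = 0.0393 in edgeR). CCND1, named after its values were seen, had the smallest p of the list. It was at a log2 fold change of −0.36 (SE 0.08, adjusted p = 0.0307 in edgeR), under the fold change threshold. The list had 0 DEGs without non-treated replicate 1, non-treated replicate 2 or 6j treated replicate 2. Without non-treated replicate 3 its only DEG was a lower one.

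Of 18 target genes of NRF2 with a small MAF partner, all 18 passed the filter and 3 were DEGs (16.7%), all higher. Over all rows, 2.48% were DEGs higher after 6j and 3.60% were DEGs in either direction. The median log2 fold change of the list was 0.23. OSGIN1, an oxidative stress response gene, rose from 5.64 ± 1.03 to 11.1 ± 0.535 CPM (SD, n = 3 each, log2 fold change 0.98, adjusted p = 0.0124 in edgeR). SLC7A11, the cystine transporter gene that is also known as an ATF4 target, rose by 0.90 (SE 0.13), and FTH1, the ferritin heavy chain gene, by 0.77 (SE 0.19). The list held 1 DEG without non-treated replicate 1 or 6j treated replicate 2. With the block 4 of its genes were DEGs, all higher, against 4.01% of all rows higher in that fit. The gene added, named after its values were seen, was HMOX1 (log2 fold change 0.67, adjusted p = 0.00135 in edgeR). HMOX1 ranged from 16.1 to 80.0 CPM in non-treated and from 27.0 to 148 CPM in 6j treated libraries.

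**Figure D5:**
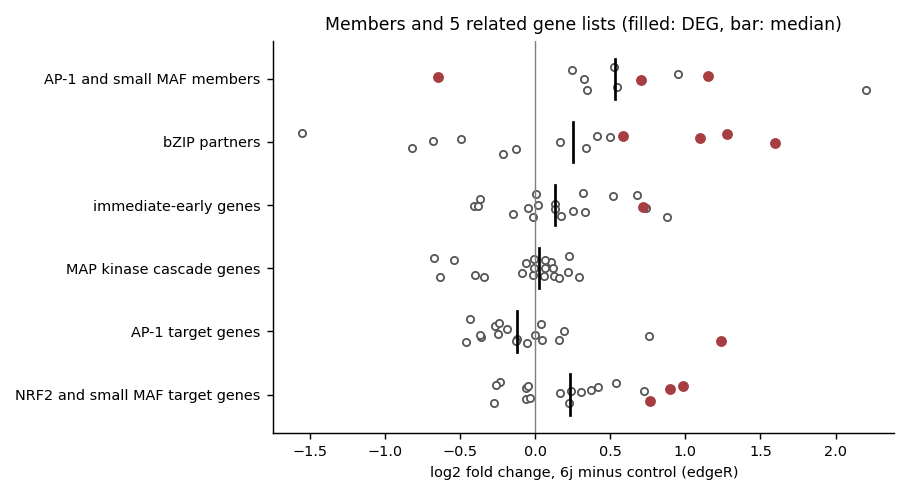
Log2 fold change between 6j treated and non-treated cells in edgeR (horizontal axis) of the 10 members and of the genes of the 5 lists that passed the filter. Each point is a gene, filled points are DEGs and vertical bars are medians, which were 0.53 for the members and 0.25, 0.13, 0.03, −0.12 and 0.23 for the lists from top to bottom.

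The genes whose log2 CPM followed MAFG most closely over the 6 libraries were TUBE1 (Pearson's r = 0.999), PSPH (0.998), FAM76A (0.997), RRAGD (0.996) and ULBP1 (0.996), out of 13359 genes with an Ensembl identifier. The log2 fold changes of these genes were 0.78, 1.08, 0.33, 1.89 and 2.38, against 0.70 for MAFG. The coefficients are descriptions over 6 libraries in 2 groups, which share the difference between the groups.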

How the data were processed

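Polyadenylated RNA of 3 non-treated and 3 6j treated MHCC-97H libraries was sequenced, and the authors deposited a table of raw counts, whole numbers per gene and library. The submitters' processing notes name HISAT2, StringTie and GRCh38. The counting program and the annotation are not given in the sources used here. All 19974 Ensembl identifiers were found in GENCODE release 29 (GRCh38), which gave coordinates and exon lengths. Another 5471 rows are new genes of the authors, and 27 symbols turned into dates were replaced.

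edgeR 4.0.16 (R 4.3.3) computed TMM factors after filterByExpr (count minimum 10, total minimum 15) and tested 15957 rows by its robust quasi-likelihood fit of the group alone. DEGs needed an adjusted p below 0.05 and a change of over 1.5-fold. Standard errors and 95% intervals were computed from the F statistic. For log2 CPM the prior count was 2. The study names DESeq2, and DESeq2 1.42.0 was an alternative. Scripts were tested on simulated data.

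Deviations from the group means of libraries with the same number correlated at 0.171, 0.18 and 0.312 over 15957 genes, each above 0.1, so the replicate number was treated as pairing the libraries in a fit with a block. What the numbers stand for is not given in the labels. Replicates differed by more than sampling noise.

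The members and the 5 lists were chosen with earlier results of these data known. Named are the members, up to 4 DEGs of each list by p or otherwise the 2 genes with the smallest p, and the 5 genes most like the member with the smallest p. Intervals on fold changes come from the spread between libraries, which exceeded the counting error.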

Additional observations from a re-analysis of the deposited data

How the results depend on the processing

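Of the 110 alternative fold changes of the members (11 settings each), 93 kept their direction and their status as DEG or not, 10 became DEGs, 5 were no longer DEGs, and 2 changed sign, FOS to −0.078 and FOSL1 to −0.12, both without 6j treated replicate 3 (ranges with 1 library left out −0.078 to 0.55 and −0.12 to 0.45). The cause of these changes was not tested, except that a fit without 1 library has fewer samples.

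The number of DEGs over all rows was 1462 without the fold change threshold, 1136 with unadjusted p and 1033 with the replicate block, against 574, and 186 (without non-treated replicate 1) to 772 (without 6j treated replicate 1) with 1 library left out. Also without 6j treated replicate 2 (193) and non-treated replicate 3 (379) it moved by over 1.5 times. Among the 10 members, 5 were DEGs in DESeq2, without the fold change threshold, with unadjusted p and with the replicate block, against 3. With 1 library left out, 1 (without non-treated replicate 1) to 5 (without 6j treated replicate 1) were DEGs. The members added were JUND and MAFK without the fold change threshold, and JUN and FOSB in DESeq2, with unadjusted p and with the block. Without 6j treated replicate 1, JUN and MAFK were added. The bZIP partners had 2 to 5 DEGs with 1 library left out. The immediate-early genes had 2 DEGs with library totals alone and without the fold change threshold, 3 in DESeq2, with unadjusted p and with the replicate block, and 0 to 3 with 1 library left out. The MAP kinase cascade genes had 1 DEG in DESeq2, without the fold change threshold, with unadjusted p and with the replicate block, and 0 in each fit with 1 library left out. The AP-1 target genes had 0 without the filter on low counts, 2 without the fold change threshold and with unadjusted p, and 0 to 1 with 1 library left out. The NRF2 and small MAF target genes had 5 without the fold change threshold and 1 to 4 with 1 library left out. With the longest transcript as the length, the FOSL2 share was 79.3% in non-treated cells, and the MAFG share was 40.0% in non-treated and 41.1% in 6j treated cells. That length is 3368 bases for MAFK, against 4458 exon bases, and 5040 against 5220 for MAFG. With it the mean level of MAFK was above that of MAFG in non-treated cells, and that of FOS above that of FOSL1. These orders therefore depend on the length used. Other normalizations changed 1 call among the members, that of JUN, which passed with library totals alone. The block changed no call of a named gene other than those given above. FOSB had 32 to 48 counts in non-treated cells and 58 to 352 in 6j treated cells, a wide spread at a low count.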
